A study of Mus musculus with 92 samples.

Results

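The replication-dependent ("canonical") histone genes were examined in 92 poly(A)-selected RNA libraries from mouse intestinal tissue, small intestinal organoids and fetal intestinal spheroids. The members were all protein-coding genes whose names begin with Hist1h, Hist2h, Hist3h or Hist4h, which gave 67 of the 54532 genes in the count tables. They comprised 6 genes for the linker histone H1, 18 for H2A, 18 for H2B, 12 for H3 and 13 for H4. The Hist1 cluster on chromosome 13 held 54 of them, the Hist2 cluster on chromosome 3 held 10, the Hist3 genes on chromosome 11 were 2, and 1 lay on chromosome 6. Of the 67, 61 had at least 1 read in some library and 6 had none (Hist2h2aa1, Hist2h2aa2, Hist2h3c1, Hist2h3b, Hist2h2bb and Hist1h2aa).

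Nucleosomes are built from the core histones H2A, H2B, H3 and H4, and H1 binds the linker DNA between them. Most canonical histone mRNAs are made in S phase, lack introns, and end in a short stem-loop instead of a poly(A) tail. The stem-loop is bound by SLBP, the U7 small nuclear ribonucleoprotein guides cleavage just behind it, and the mRNA is degraded when DNA synthesis stops. Some of these genes can also be read through to a downstream poly(A) signal, and polyadenylated forms of Hist1h1c (H1.2), Hist1h2bc and Hist2h2be are known from cells that have left the cycle. Libraries prepared with poly-T beads capture mainly the polyadenylated forms, so levels here are not levels of total histone mRNA.

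The study deleted Eif4g2, which encodes a translation initiation factor of the eIF4G family, in the intestinal epithelium and in cultures derived from it. In the first mouse cohort, Rosa26-CreER, which is expressed in all cells, was combined with Eif4g2 flox/flox (homozygous) or flox/+ (heterozygous) and tissue was taken on day 9 after tamoxifen, with 4 homozygous and 5 heterozygous crypt libraries and 5 villus libraries of each genotype. In the second cohort, Vil1-CreER, which is active in intestinal epithelial cells, was used with tamoxifen at 100 mg per kg and sampled at month 3. That cohort held 4 heterozygous and 3 homozygous crypt libraries and 4 heterozygous and 6 homozygous villus libraries. Every mouse group had received tamoxifen and carried at least 1 floxed allele, so there was no untreated or wild-type tissue group. The ages of the animals were not given in the sources used here.

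All cultures carried Rosa26-CreER and were kept in medium with EGF, Noggin and R-spondin (ENR). In the first organoid set, 3 flox/flox lines were given either DMSO or 0.5 µM 4-hydroxytamoxifen (4-OHT) for 24 h and collected on day 6. In the second organoid set, flox/flox, flox/+ and CreER-only (Eif4g2 +/+) organoids all received 4-OHT, with 4 libraries each. Fetal spheroids were flox/flox (6 DMSO, 6 with 4-OHT) or flox/+ (5 and 5). The second organoid set and the spheroids also had 4-OHT at 0.5 µM and collection on day 6. A further set of 4 organoid lines was cultured for 4 days with DMSO or with 3, 5 or 10 µM A-485, which blocks the acetyltransferase activity of p300 and its paralog CBP. Line 1 of that set was Eif4g2 +/+ and lines 2 to 4 were flox/flox, and none received 4-OHT. Line 2 had the same line label as line 1 of the first organoid set, so these sets are not fully separate.

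Libraries held 8652040 to 37611126 counts over all genes, and the A-485 libraries were the shallowest at 8652040 to 16436145. Eif4g2 was lower in every deleted group than in its reference. It fell from a mean of 498 to 119 CPM (counts scaled to a library total of 1e6) in Rosa26-CreER crypts, from 253 to 41.0 in villi, from 606 to 277 in Vil1-CreER crypts and from 315 to 138 in villi. Reads covering exons outside the deleted part are included in these values. Crypt stem cell markers summed to 6699 CPM in heterozygous Rosa26-CreER crypts and 18.3 in the matching villi, and enterocyte markers to 2324 and 34133. Markers of lymphoid and myeloid cells were present in tissue (mean sums of 645 to 3762 CPM by group) and near 0 in cultures (0.06 to 1.11 CPM). In bulk tissue, fewer cells of a type and less RNA per cell cannot be told apart.

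The stem-loop sequences of Hist1h1c, Hist2h3c2, Hist1h4i and the weakly measured Hist1h3c and Hist1h4m (973 and 450 counts in all) are shown first. These sequences are the sites at which a poly(A)-lacking histone mRNA would end. Each was found in GENCODE vM21 transcripts (GRCm38) 24 to 33 bases behind the stop codon. Capitals mark the 16-base stem-loop.
Hist1h1c: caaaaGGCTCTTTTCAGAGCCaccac
Hist2h3c2: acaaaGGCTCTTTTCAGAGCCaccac
Hist1h4i: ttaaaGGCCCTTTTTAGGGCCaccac
Hist1h3c: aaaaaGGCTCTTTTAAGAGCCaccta
Hist1h4m: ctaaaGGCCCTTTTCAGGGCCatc
The Hist1h1c stem-loop lay at chr13:23739512-23739527 on the plus strand, in the 3′UTR, and the Hist1h1c model continued for a further 840 bases. The Hist1h4i stem-loop lay at chr13:22040966-22040981 with 330 bases of transcript model behind it, and that of Hist2h3c2 at chr3:96238485-96238500 with 377. By contrast, the models of Hist1h3c and Hist1h4m ended 74 and 3 bases behind their stem-loops.

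The downstream poly(A) signals of 4 members with many counts are shown next, since oligo-dT beads mainly hold mRNAs that were cleaved and tailed. Capitals mark AATAAA or ATTAAA, the last such hexamer in the 3′UTR.
Hist1h1c: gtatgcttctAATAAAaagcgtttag
Hist2h2be: tattattattAATAAAgttaccgatt
Hist1h4i: ttctgtttacATTAAAagtattctat
Hist1h2bc: atgtatatatAATAAAtgtcatgtaa
In Hist1h1c the hexamer ended 20 bases before the end of the model (chr13:23740342-23740347), in Hist2h2be 16 bases before it (chr3:96223717-96223722) and in Hist1h4i 15 bases before it. In Hist1h2bc the last hexamer lay 441 bases before the end of a model that splices behind the stop codon. Neither hexamer was found behind the stop codon in the models of Hist2h3c2 (2652 counts) and Hist1h1e (2354 counts). No stem-loop match began within 100 bases behind the stop codon in the Hist1h2bc and Hist2h2be models. The rest of their 3′UTRs, which are 742 and 2192 bases long, was not searched.

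A few members supplied nearly all canonical histone counts. Over the 92 libraries the members had 282220 counts, of which Hist1h1c, the gene for linker histone H1.2 (chr13:23738808-23740367, plus strand), had 50.3%. Hist1h2bc, an H2B gene (chr13:23684199-23692908, plus strand), had 29.2%, and Hist2h2be, another H2B gene (chr3:96221119-96223738, plus strand), had 5.38%. These 3 genes together held 84.9% and the 10 highest 92.4%. By class, H1 took 52.4% of the counts, H2B 37.7%, H4 4.13%, H2A 3.10% and H3 2.73%. The members summed to between 0.00513% of all counts (mean of homozygous Vil1-CreER crypts) and 0.072% (mean of 10 µM A-485).

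Levels per kilobase of gene length, averaged over the 21 groups, placed Hist1h1c first at 51.2 CPM per kb and Hist1h2bc second at 35.5. The H4 genes Hist1h4i (3.91) and Hist1h4k (2.21), the H2B genes Hist2h2be (2.81), Hist1h2bg (1.62) and Hist1h2bj (1.06), the H3 genes Hist2h3c2 (1.86) and Hist1h3c (0.849), and the H2A gene Hist3h2a (0.858) followed. Hist1h1c and Hist1h2bc were thus over 9 times the level per kb of any other member. Only 10 members averaged 1 CPM or more, only 5 had a read in all 92 libraries, and 14 had fewer than 100 reads in all. Reads can be split among near-identical genes: the coding sequence of Hist2h3c2 was 99.8% identical to that of Hist2h3b, Hist1h2bc 98.9% to Hist1h2bj, Hist1h2bg 98.7% to Hist1h2bc, Hist1h4k 98.4% to Hist1h4j, and Hist1h4m 100% to Hist1h4n. Hist1h1e overlaps Hist1h2be on the same strand and Hist3h2a overlaps Trim17 on the same strand, so the counts of these genes are uncertain as well.

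Annotated transcript length and counts went together, largely through the most abundant genes. The 28 members with a transcript model that reaches at least 100 bases past the stem-loop (or past the stop codon where no stem-loop was matched) held 95.9% of the counts, and the other 39 held 4.09%. Hist1h1c, Hist1h2bc and Hist2h2be are 3 of the 28, and without them the remaining 25 held 72.8% of the remaining counts. The median level per kb was 0.418 CPM for the 28 and 0.272 CPM for the 39. Across the 67 genes, which are not independent replicates, the longest 3′UTR and the total counts had a Spearman correlation of 0.529, given as a description. A longer gene model also collects more reads, and with the level per kb in place of the counts the correlation was 0.21.

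**Figure D1:**
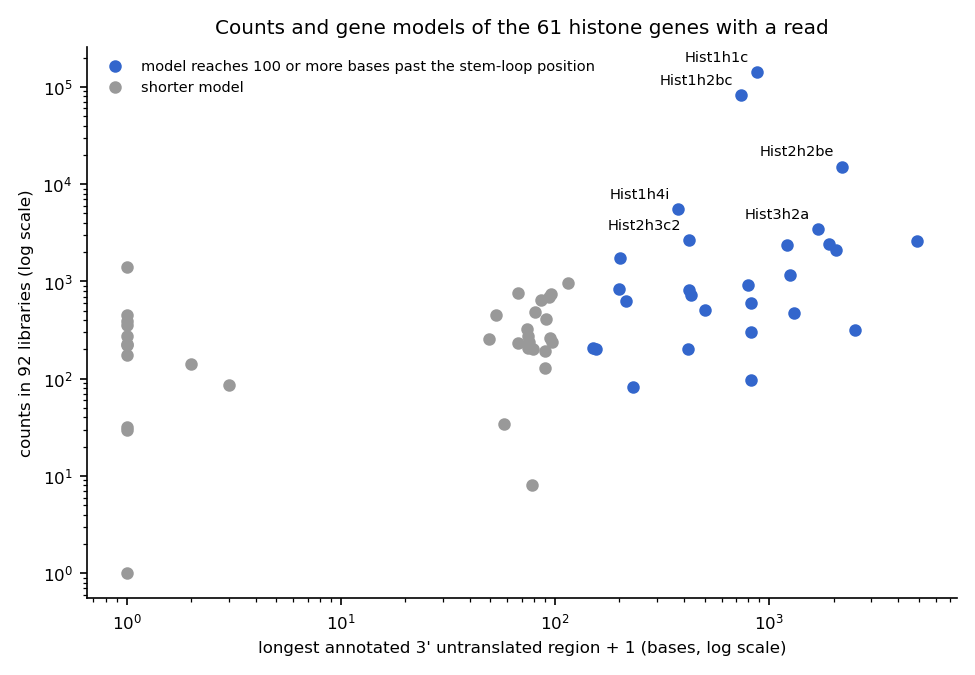
Each point is 1 of the 61 members with a read. The x axis is the length of the longest annotated 3′UTR plus 1 base (log scale). The y axis is the member's counts over 92 libraries (log scale). Blue points have models that reach at least 100 bases past the stem-loop, or past the stop codon where no stem-loop was matched. Hist1h1c (142021 counts), Hist1h2bc (82545) and Hist2h2be (15174) are the 3 highest points and all are blue.

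Promoters were compared because the 3 H1 genes Hist1h1c, Hist1h1d and Hist1h1e were all called higher at 10 µM A-485. They were not called together throughout: at 3 µM the only one called was Hist1h1c, and in heterozygous Rosa26-CreER crypts against villi Hist1h1d and Hist1h1e were higher and Hist1h1c lower. RefSeq windows (GRCm38.p6, 250 bases before to 50 after the start) were matched for 61 of the 67 members and searched on both strands. TATAAA was present in 57.4% of these windows and in 14.2% of the 27025 windows of all genes, and CCAAT in 85.2% against 37.9%. ATTTGCAT, the octamer of histone H2B promoters, was present in 41.2% of H2A and 37.5% of H2B windows and in none of the H1, H3 and H4 windows, against 1.75% of all genes. AAACACA, the H1 box, was found in 5 of the 6 H1 windows (83.3%), in 9 of the 61 member windows and in 7.14% of all windows. A match is a description and not evidence of binding.

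The stretch from the AAACACA box to the CCAAT box is printed for the 3 H1 genes that were called in the A-485 series, with both boxes in capitals.
Hist1h1c: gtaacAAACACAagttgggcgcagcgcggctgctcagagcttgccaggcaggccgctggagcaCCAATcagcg
Hist1h1e: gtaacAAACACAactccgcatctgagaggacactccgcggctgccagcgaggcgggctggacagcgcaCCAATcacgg
Hist1h1d: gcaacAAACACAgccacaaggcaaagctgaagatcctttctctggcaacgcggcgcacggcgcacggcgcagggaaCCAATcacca
They lie at chr13:23738690-23738762 (plus strand), chr13:23622601-23622678 (minus strand) and chr13:23554905-23554990 (plus strand). The 2 boxes were 51 bases apart in Hist1h1c, 56 in Hist1h1e and 64 in Hist1h1d. The CCAAT box began 54, 52 and 51 bases before the start of the gene. In Hist1h1t, another H1 gene, it began 65 bases before the start.

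Across the 21 groups, the summed member level was lowest in homozygous Vil1-CreER crypts (39.3, 56.5 and 58.1 CPM) and in flox/flox spheroids after 4-OHT (33.9 to 80.4 CPM), and highest in organoids with 10 µM A-485 (659 to 769.5 CPM). The 3 genes with most counts made up 95.8% of member counts in heterozygous Rosa26-CreER villi, 74.3% in the matching crypts and 69.4% in DMSO organoids of the A-485 set. The sum therefore mostly follows Hist1h1c and Hist1h2bc, and the other 64 members are given separately below. No p is given for any sum, since the members were chosen with results of these libraries known.

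**Figure D2:**
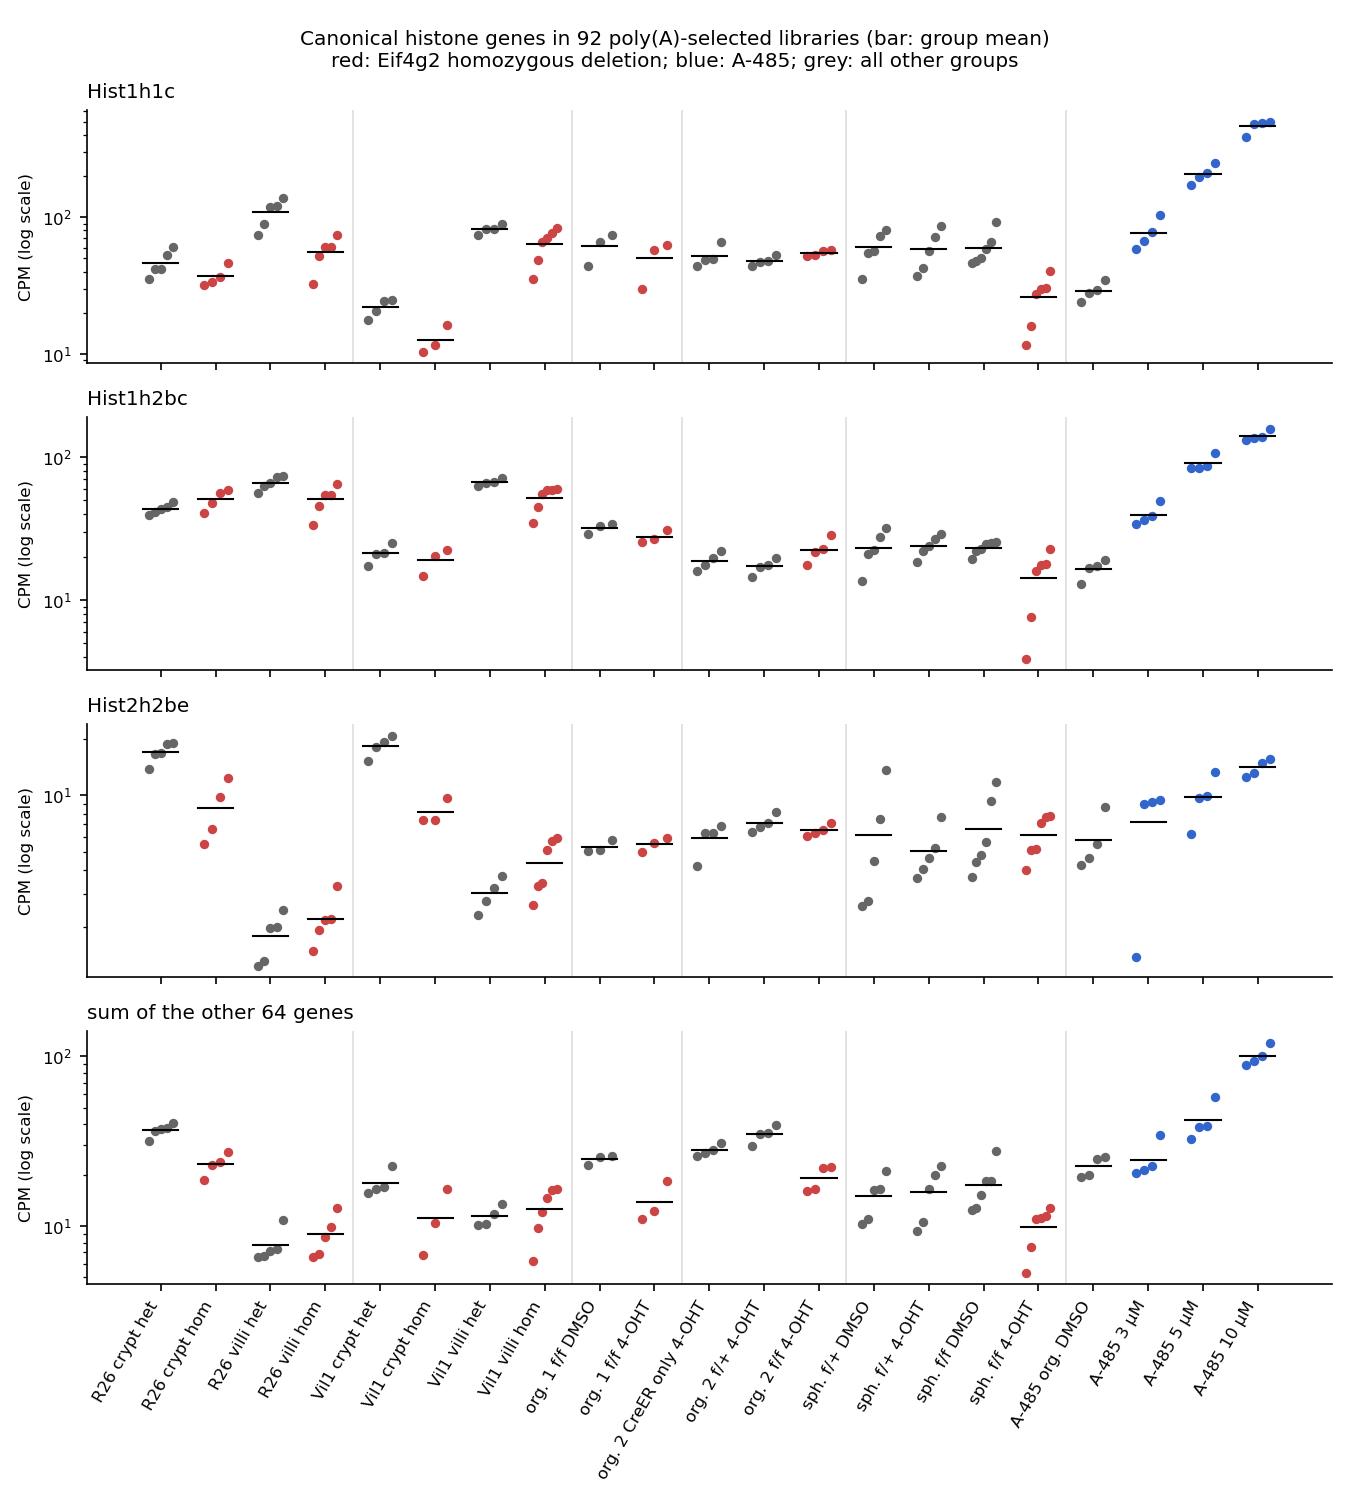
Each point is 1 library and each bar a group mean, for Hist1h1c, Hist1h2bc, Hist2h2be and the sum of the other 64 members (CPM, log scale) in the 21 groups; red marks groups with homozygous Eif4g2 deletion, blue A-485 and grey the others. Hist1h1c spans 10.4 CPM in a homozygous Vil1-CreER crypt library to 500.0 CPM with 10 µM A-485, and in heterozygous mice Hist2h2be is higher in crypts than in villi while Hist1h1c and Hist1h2bc are lower there.

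The largest change in canonical histone RNA occurred with A-485. The summed level was 66.7, 70.4, 77.1 and 80.4 CPM in the 4 DMSO libraries, 122.5 to 183 at 3 µM, 323 to 402 at 5 µM and 659 to 769.5 at 10 µM. The groups did not overlap at any step, and the means (73.7 ± 6.23, 148 ± 25.8, 349 ± 36.5 and 720 ± 45.6 CPM, SD, n = 4 each) gave ratios to DMSO of 2.01, 4.74 and 9.77. The less abundant 64 members did not follow at the lowest dose: they summed to a mean of 22.47 CPM in DMSO and 24.66 at 3 µM, with overlapping libraries, and averaged 42.0 at 5 µM and 101 at 10 µM, without overlap with DMSO. The libraries at 3 and 5 µM overlapped in that sum.

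Hist1h1c, the H1.2 gene, had 23.9, 27.9, 29.3 and 34.5 CPM in DMSO and 388.5, 480.3, 487.1 and 500.0 CPM at 10 µM. Its values between these doses were 58.9 to 103.6 CPM at 3 µM and 171.4 to 249.7 at 5 µM, so no neighbouring doses overlapped and all 4 lines rose at every step. The log2 fold change was 1.29 ± 0.17 (SE; edgeR adjusted p = 4.21e-05) at 3 µM, 2.76 ± 0.18 at 5 µM and 3.88 ± 0.18 (adjusted p = 1.61e-11) at 10 µM. Hist1h1c thereby grew from 39.1% to 64.3% of member counts.

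Hist1h2bc, an H2B gene, had 13.0, 16.8, 17.4 and 18.9 CPM in DMSO and 132.6, 136.7, 137.1 and 157.5 CPM at 10 µM. It too rose in all 4 lines at every step with no overlap between neighbouring doses. The log2 fold changes were 1.13 ± 0.14 (edgeR adjusted p = 2.11e-05), 2.37 ± 0.14 and 2.96 ± 0.15 (adjusted p = 2.42e-11). At 5 µM line 4 stood apart at 106.7 CPM, with the other lines at 84.2 to 86.6.

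Hist2h3c2, an H3 gene (chr3:96238108-96239127, minus strand), showed the largest log2 fold change of the called members. It had 0, 0.155, 0.219 and 0.367 CPM in DMSO, 10 counts in all, and 19.88, 20.35, 20.998 and 24.05 CPM at 10 µM. The highest DMSO library lay far below the lowest treated one. Log2 fold changes were 3.07 ± 0.49 (edgeR adjusted p = 0.000256), 5.39 and 6.64 ± 0.47 (adjusted p = 1.36e-09), and with so few DMSO counts their size is imprecise.

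Of the 20 members with enough reads to be tested at 3 µM, 4 were called higher (edgeR quasi-likelihood test, Benjamini-Hochberg adjusted p below 0.05) and 0 lower, where 10.8% of all genes tested were called higher and 8.42% lower. At 5 µM, 8 were higher and 1 lower, against 24.4% and 25.1% of all genes. At 10 µM, 14 of 20 were higher and 0 lower, against 29.4% and 32.6%. The median log2 fold change of the 20 members moved from 0.23 to 1.12 to 2.71, with medians of 0.00, -0.02 and -0.05 over all genes. The 3 doses were compared with the same DMSO libraries.

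The rise at 10 µM covered all 5 classes. Among H1 genes Hist1h1d (H1.3) went from 0.294 to 1.24 CPM in DMSO to 9.95, 13.3, 13.6 and 15.4 CPM, without overlap (4.00 ± 0.64 on the log2 scale, edgeR adjusted p = 2.84e-05). Hist1h1e (H1.4) rose by 1.75 (adjusted p = 0.0347), a call that 4 of 8 refits without 1 library did not keep.

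Among H2A genes, Hist1h2ac had 0 to 1.03 CPM in DMSO and 5.23 to 8.78 at 10 µM (log2 fold change 4.21 ± 0.70, edgeR adjusted p = 4.04e-05). Hist3h2a, the other H2A gene named, had 0.777 to 1.18 and 4.62 to 9.52 CPM (2.75 ± 0.45, adjusted p = 3.45e-05). Both rose at every dose step in 4 of 4 lines. Among H2B genes, Hist1h2bg went from 0.233 to 1.02 CPM to 3.63 to 6.47, and Hist1h2be from 0.802 to 1.55 CPM to 6.56 to 10.9, with log2 fold changes of 2.95 and 2.67. None of these 4 genes overlapped between DMSO and 10 µM.

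Hist2h2be, the H2B gene with the third most counts, moved least among the called H2B genes. It had 4.26, 4.65, 5.52 and 8.68 CPM in DMSO and 12.6, 13.2, 14.9 and 15.6 at 10 µM, without overlap (1.16 ± 0.40, edgeR adjusted p = 0.0186), and 2 of 8 refits without 1 library lost the call. Leaving out line 1, 2 or 3 at all doses also ended it (adjusted p = 0.122, 0.112 and 0.0821). At 3 µM, line 4 had 1.39 CPM (13 counts) while the other lines had 8.98 to 9.47. The mean ratio of Hist2h2be to Hist1h2bc per kb was 0.156 in DMSO and 0.087, 0.0492 and 0.0443 at the rising doses.

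Among H3 and H4 genes other than Hist2h3c2, Hist1h3d had 0 to 0.365 CPM in DMSO and 2.43 to 6.59 at 10 µM (4.41 ± 1.12, edgeR adjusted p = 0.00219). Hist1h4m had 6 counts in the 4 DMSO libraries and 174 at 10 µM (4.70 ± 1.19, adjusted p = 0.00229). Hist1h4i, the H4 gene with the highest level per kb, had 1.32 to 3.11 CPM in DMSO and 3.58 to 7.74 at 10 µM (1.22, adjusted p = 0.0351), and 6 of 8 refits lost that call. Hist1h4h rose by 3.28 (adjusted p = 0.0231), lost in 2 of 8.

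Not every member moved with the sum. Hist1h2bj, an H2B gene whose model ends 23 bases behind its stem-loop, had 0.367 to 2.51 CPM in DMSO, 0.107 to 1.57 at 3 µM, 0 to 0.668 at 5 µM and 1.23 to 3.42 at 10 µM. It was the only member called lower at any dose (log2 fold change -2.50 ± 0.90 at 5 µM, edgeR adjusted p = 0.0285, not kept in 5 of 8 refits). The longer models, reaching past the stem-loop or past the stop codon where none was matched, belonged to 15 tested members. Of these, 12 were called higher at 10 µM, and of the 5 others 2 were. Of all genes tested, 29.4% were called higher at that dose. The median log2 fold change was 2.75 for the 15 and 0.84 for the 5.

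**Figure D3:**
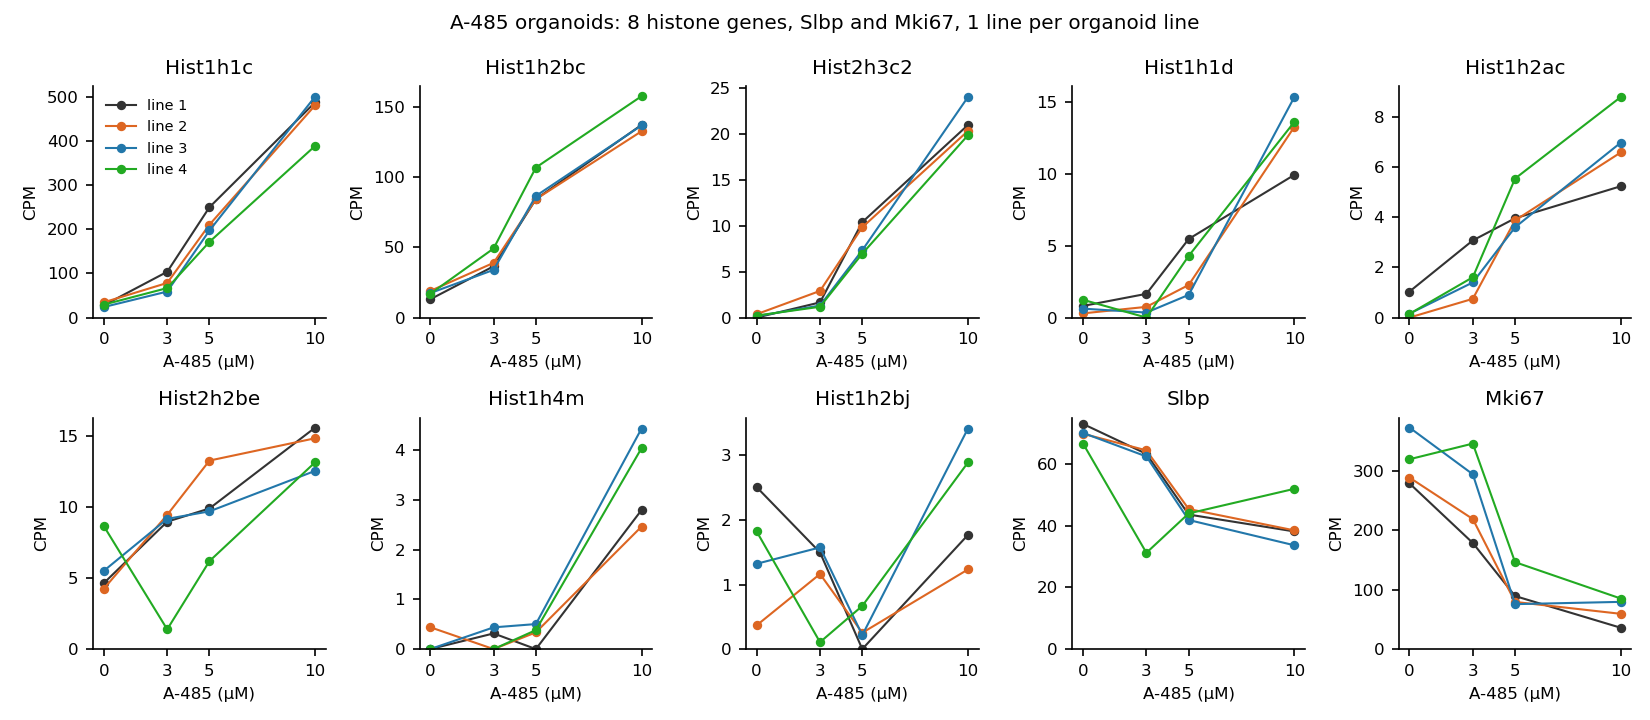
CPM (y axis, linear from 0) against A-485 concentration (x axis, µM) for 8 members and for Slbp and Mki67, 1 line per organoid line (n = 4). Hist1h1c, Hist1h2bc and Hist2h3c2 rise at every step in all 4 lines, whereas the mean of Slbp falls from 69.8 to 40.5 CPM and that of Mki67 from 315 to 64.9.

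Genes of S phase moved the other way. Of 22 genes for DNA replication and nucleotide supply, 21 fell at 10 µM and 0 rose (edgeR, median log2 fold change -1.89), and their summed mean went from 2279 CPM in DMSO to 1968, 840 and 645. Mki67, a marker of cycling cells, fell by 2.41 at 10 µM and Slbp, the stem-loop binding protein, by 0.91 (edgeR adjusted p = 0.000284). Of 16 genes for transcription, processing and decay of histone mRNA, 9 fell at 10 µM and 0 rose, among them Eri1 (-0.72), an exonuclease that acts at the stem-loop, and Lsm11 (-1.15), a U7 component. Npat, the coactivator of histone gene transcription, had a log2 fold change of -0.04 ± 0.19 (adjusted p = 0.884). Of 16 histone chaperone genes, 12 fell and 0 rose, including Chaf1b of CAF-1 (-1.99).

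Replacement histones, most of which are made throughout the cell cycle from ordinary polyadenylated mRNAs, were lower in most cases. At 10 µM, 3 of 11 rose and 7 fell (median log2 fold change -0.71). The log2 fold changes were -1.70 for H2afz, -1.94 for H2afv, -0.95 for H1f0 and -1.11 for H2afx. The largest rise was that of H2afy2, which encodes macroH2A2 (3.74 ± 0.64, edgeR adjusted p = 5.74e-05), and the linker histone gene H1fx rose by 1.95 ± 0.54 (adjusted p = 0.00445). Both calls were kept in all 8 refits. H3f3b, a gene for H3.3, rose by 0.25 (edgeR adjusted p = 0.0264, lost in 3 of 8 refits), and H3f3a had -0.18 (adjusted p = 0.470). Stem cell markers fell in the same libraries, from a mean sum of 6427 to 52.8 CPM, and enterocyte markers from 7263 to 206. The part of these changes in the histone values was not tested.

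Crypts and villi of heterozygous animals hold dividing and post-mitotic epithelium respectively, and the canonical histone genes split between them. In Rosa26-CreER mice, Hist1h1c had 35.6 to 60.3 CPM (median 41.9, n = 5) in crypts and 73.8 to 138.2 (median 119.5, n = 5) in villi. Hist1h2bc had 39.5 to 48.5 and 55.7 to 73.8 CPM. Hist2h2be ran the other way, with 13.7 to 19.0 CPM in crypts and 1.25 to 2.47 in villi. None of these 3 genes overlapped between the tissues. Log2 fold changes of crypts over villi were -2.20 ± 0.20 for Hist1h1c (edgeR adjusted p = 8.17e-07), -1.57 ± 0.09 for Hist1h2bc (2.01e-08) and 2.27 ± 0.21 for Hist2h2be (9.26e-07). Scaling shifted these values: TMM lowered crypts against villi by 0.97 log2 units relative to CPM in this cohort, and by 0.61 in the Vil1-CreER cohort.

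The same 3 genes differed in Vil1-CreER mice. Hist1h1c had 17.6, 20.7, 24.4 and 24.7 CPM in crypts and 74.6, 82.0, 82.6 and 89.4 in villi (-2.52 ± 0.10, edgeR adjusted p = 8.66e-08). Hist1h2bc had 17.3 to 25.0 and 62.9 to 71.0 CPM (-2.27 ± 0.10). Hist2h2be had 15.2, 17.9, 19.2 and 20.7 CPM in crypts and 2.31, 2.76, 3.23 and 3.74 in villi (1.99 ± 0.16, adjusted p = 1.56e-06). All 3 were without overlap. Per kilobase, the ratio of Hist2h2be to Hist1h2bc was 0.173 in heterozygous Rosa26-CreER crypts and 0.0123 in villi.

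The cohorts gave different counts of calls. In Rosa26-CreER mice 16 of 22 tested members were higher in crypts and 3 lower, where 40.6% and 36.4% of all genes tested were called, and the member median was 1.56 against 0.09 over all genes. In Vil1-CreER mice 1 of 15 was higher and 3 lower, against 35.2% and 32.7%, with a median of 0.10 against 0.08. Without the 3 abundant genes, 15 of 19 tested members were higher and 1 lower in Rosa26-CreER crypts, and 0 of 12 higher and 1 lower in Vil1-CreER crypts. The other 64 members summed to a mean of 36.8 CPM in Rosa26-CreER crypts and 7.73 in villi, a ratio of 4.76, and to 18.0 and 11.4 in Vil1-CreER mice, a ratio of 1.58. Neither pair overlapped in CPM. After TMM scaling the log2 ratios of these sums, 2.25 and 0.66 in CPM, became 1.27 and 0.050. The difference between cohorts was not tested, and driver, time and batch cannot be told apart.

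The members higher in Rosa26-CreER crypts included H3 genes (Hist1h3c 3.60, Hist1h3e 3.28, Hist1h3g 3.15), the H2A gene Hist1h2ao (2.89) and the H2B gene Hist1h2bh (2.60, all log2 fold changes called by edgeR). Hist1h4i, an H4 gene, had 5.42 to 7.15 CPM in crypts and 0.493 to 2.43 in villi (1.39 ± 0.35, adjusted p = 0.00324). Hist1h4j, also H4, had 141 counts in the crypt libraries and 1 in the villus libraries, 4 of 5 of which were at 0. Hist3h2a (0.82, adjusted p = 0.0418) and Hist1h2bg (0.70, adjusted p = 0.0421) were the weakest calls, lost in 7 and 8 of 10 refits without 1 library. The H3 gene Hist2h3c2 was lower in crypts (0.223 to 0.543 CPM) than in villi (0.641 to 2.04 CPM), with a log2 fold change of -2.64 ± 0.42. In Vil1-CreER mice the H1 gene Hist1h1e was the fourth called member, at 0.276 to 0.518 CPM in crypts and 0.486 to 0.933 in villi, ranges that overlapped (-1.49 ± 0.40, adjusted p = 0.00686). In Rosa26-CreER mice Hist1h1e was instead higher in crypts (1.51 ± 0.44, edgeR adjusted p = 0.00795, kept in all 10 refits).

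**Figure D4:**
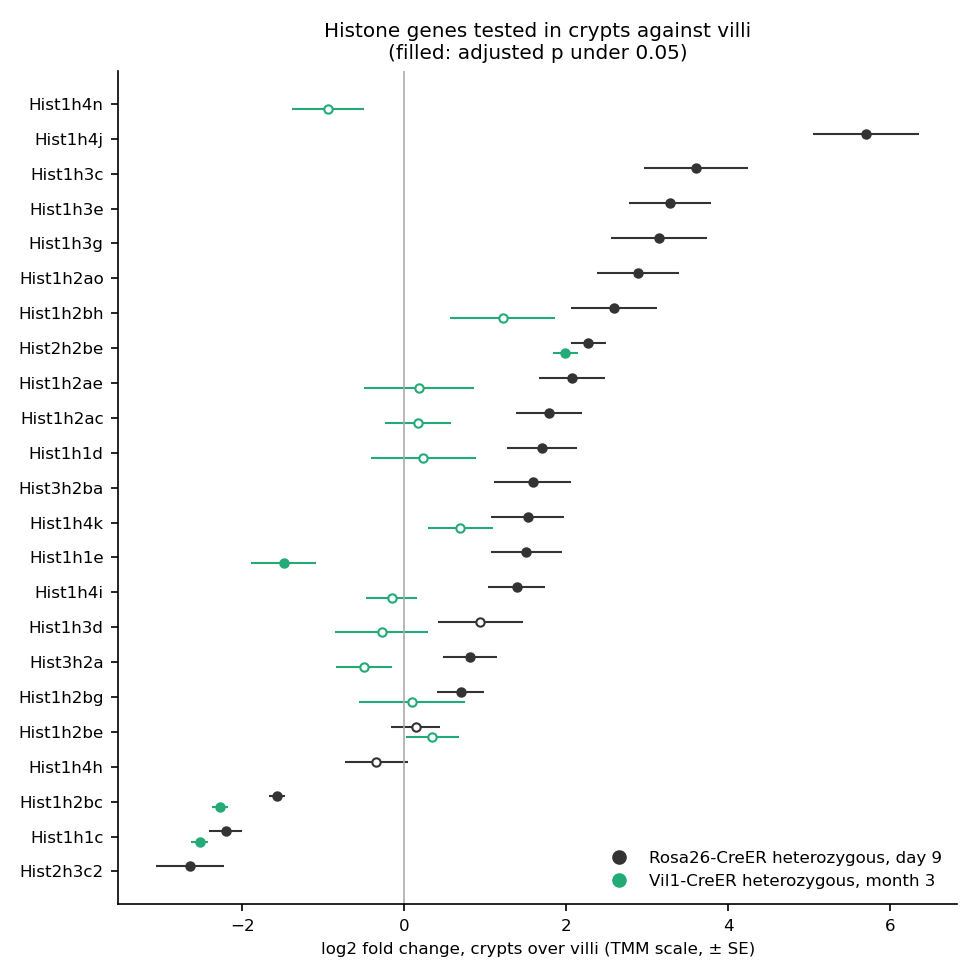
Log2 fold change of heterozygous crypts over heterozygous villi (x axis, bars are SE) for each tested member, with Rosa26-CreER mice in black (n = 5 and 5) and Vil1-CreER mice in green (n = 4 and 4); filled points have an edgeR adjusted p below 0.05. Hist1h1c and Hist1h2bc lie left of 0 in both cohorts and Hist2h2be lies right of 0 in both.

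Cell cycle genes separated the tissues strongly. Of 22 S phase genes, 21 were higher in Rosa26-CreER crypts and 22 in Vil1-CreER crypts, and 0 were lower in either (median log2 fold change 3.79 and 3.37). Mki67 was higher by 4.52 and 3.73, H2afz by 1.90 and 1.37, and Slbp by 0.88 and 0.93. Of the 16 histone mRNA genes 14 and 13 were higher. Replacement histones were higher in 10 and 7 of 11 cases. Hist1h1c and Hist1h2bc thus ran against both lists. Lymphoid and myeloid markers summed to 3762 CPM in heterozygous Rosa26-CreER villi and 1987 in crypts, and to 2823 and 1579 in Vil1-CreER mice, and their part in these values was not tested.

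Homozygous deletion of Eif4g2 in crypts was accompanied by lower Hist2h2be in both cohorts. In Rosa26-CreER crypts Hist2h2be had 5.49, 6.60, 9.84 and 12.3 CPM in homozygous libraries and 13.7, 16.6, 16.7, 18.7 and 19.0 in heterozygous ones (log2 fold change -0.91 ± 0.19, edgeR adjusted p = 0.0116). In Vil1-CreER crypts it had 7.35, 7.43 and 9.68 against 15.2, 17.9, 19.2 and 20.7 CPM (-1.02 ± 0.11, adjusted p = 0.000517). Groups did not overlap in either cohort, and every refit without 1 library kept both calls (9 and 7 refits). The call in Rosa26-CreER crypts also held with a term for Ddx3y, a Y-linked gene above 1 CPM in 5 of 5 heterozygous and 1 of 4 homozygous libraries. Scaling moved these comparisons by 0.13 and 0.14 log2 units.

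In Rosa26-CreER crypts 0 of 26 tested members were higher and 4 lower, against 8.63% and 11.6% of all genes tested. The other 3 called were Hist1h3e (-1.45), Hist1h4j (-1.33) and Hist1h1e (-1.25), each lost in 3 to 5 of 9 refits and Hist1h1e and Hist1h4j with the Ddx3y term too. Leaving out homozygous library 1 or 4, or heterozygous library 1, 3 or 5, left 2 called members. Of the 26, 23 had negative fold changes (median -0.38, against 0.04 over all genes). The other 64 members summed to 18.8 to 27.3 CPM in homozygous and 31.8 to 40.5 CPM in heterozygous crypts, without overlap (ratio 0.630). The sum of all members had a log2 ratio of -0.26, which was -0.0881 with totals that left out mitochondrial counts. Hist1h2bc had 40.7 to 58.7 CPM in homozygous and 39.5 to 48.5 CPM in heterozygous crypts and was not called.

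In Vil1-CreER crypts 0 of 17 members were higher and 4 lower, against 11.6% and 17.7% of all genes. Besides Hist2h2be these were the H2B gene Hist1h2bh, at 0.275, 0.275 and 0.334 CPM against 0.965 to 1.44 (-1.83 ± 0.35, edgeR adjusted p = 0.00613, kept in all 7 refits), the H3 gene Hist1h3c (-1.95) and Hist1h1c. Hist1h3c had 12 counts in the homozygous and 82 in the heterozygous libraries, and 3 of the 4 refits that tested it lost the call. Hist1h1c had 10.4, 11.5 and 16.2 CPM in homozygous and 17.6 to 24.7 in heterozygous crypts (-0.62 ± 0.17, adjusted p = 0.0283), and 4 of 7 refits lost the call. The count was 2 without heterozygous library 1 or 4 or homozygous library 1. The median of the 17 was -0.62, against 0.01 over all genes. For the other 64 members, sums were 6.76 to 16.49 CPM in homozygous and 15.76 to 22.72 CPM in heterozygous crypts, which overlapped (ratio 0.624).

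Mki67, a marker of cycling cells, and the share of mitochondrial counts also differed between genotypes in these crypt comparisons. Mki67 had a mean of 303 CPM in heterozygous and 176 in homozygous Rosa26-CreER crypts (log2 fold change -0.71, lost in 5 of 9 refits), and of 537 and 295 in Vil1-CreER crypts (-0.72, edgeR adjusted p = 0.00184). S phase genes changed less: 2 of 22 fell in Rosa26-CreER crypts, and 4 fell and 3 rose in Vil1-CreER crypts. The share of mitochondrial counts went from 8.55% to 18.9% and from 23.3% to 35.7%. Stromal markers summed to 397 CPM in heterozygous and 1118 in homozygous Rosa26-CreER crypts. All 4 crypt stem cell markers fell in Rosa26-CreER crypts and 3 of 4 in Vil1-CreER crypts. Replacement histones fell in 5 of 11 cases in each cohort, with H2afv at -1.02 in Rosa26-CreER crypts. The part of these in the histone values was not tested.

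In villi, Hist1h1c and Hist1h2bc were called lower after homozygous deletion in Rosa26-CreER mice, and Hist1h2bc was in Vil1-CreER mice. Hist2h2be was called in neither. Hist1h1c had 32.6, 51.8, 60.1, 60.5 and 74.5 CPM in homozygous Rosa26-CreER villi and 73.8, 88.9, 119.5, 121.4 and 138.2 in heterozygous ones, so the groups overlapped only at the edge. The log2 fold change was -1.06 ± 0.22 (edgeR adjusted p = 0.00447, kept in all 10 refits). Ddx3y, a Y-linked gene, was above 1 CPM in 5 of 5 heterozygous and 2 of 5 homozygous libraries, and with a term for it the value was -0.96 (adjusted p = 0.0527), so the call was lost. Hist1h2bc had 33.7 to 64.6 and 55.7 to 73.8 CPM, which overlapped (-0.48 ± 0.15, adjusted p = 0.0278), and it lost the call in 5 of 10 refits and with the Ddx3y term (adjusted p = 0.316).

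Hist1h2ac, an H2A gene, was the only member called higher in Rosa26-CreER villi, at 0.380 to 0.837 CPM against 0.0641 to 0.291 (1.43 ± 0.43, edgeR adjusted p = 0.0255, lost in 4 of 10 refits). Of 9 members tested, 1 was higher and 2 lower, against 15% and 18.2% of all genes. The count was 1 without homozygous library 3 or heterozygous library 2 or 5. In Vil1-CreER villi 0 of 14 were higher and 1 lower, against 20.9% and 21.6%. That member was Hist1h2bc, with 34.8 to 60.1 CPM (n = 6) against 62.9, 65.6, 67.3 and 71.0, without overlap (-0.51 ± 0.17, adjusted p = 0.0287), and 4 of 10 refits lost the call. Hist1h1c was at 35.2 to 83.3 CPM in homozygous and 74.6 to 89.4 CPM in heterozygous Vil1-CreER villi and was not called (-0.52 ± 0.22, edgeR adjusted p = 0.0724). Without heterozygous library 1 or 2 or homozygous library 2 no member was called, and without homozygous library 1, 5 or 6 there were 2.

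Immune markers differed between the villus groups. Lymphoid and myeloid genes summed to 3762 CPM in heterozygous and 1706 in homozygous Rosa26-CreER villi, and to 2823 and 645 in Vil1-CreER villi, with 4 of 7 lower in each cohort (edgeR). Their part in the villus values of Hist1h1c and Hist1h2bc was not tested. The other 64 members overlapped between genotypes in both cohorts, with means of 8.97 and 7.73 CPM in Rosa26-CreER and 12.6 and 11.4 CPM in Vil1-CreER villi (homozygous first).

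The genotype effect was compared between crypts and villi as an interaction. In Rosa26-CreER mice 4 of 27 tested members differed, where 11.5% of all genes did. Hist2h2be (-1.23 ± 0.36, edgeR adjusted p = 0.0349), Hist1h2ac (-2.04, adjusted p = 0.0225) and Hist1h4j (-3.91, adjusted p = 0.0248) had the more negative fold change in crypts, and Hist1h2bc (0.72 ± 0.21, adjusted p = 0.0387) had the more negative one in villi. In Vil1-CreER mice 1 of 21 differed, against 15.5% of all genes, and it was again Hist2h2be (-1.38 ± 0.27, adjusted p = 0.00404). With the animal as a block, which pairs the tissues and was added after seeing the data, Hist1h2bc was the 1 member still called in Rosa26-CreER mice (0.73 ± 0.16, edgeR adjusted p = 0.0278, with 4.71% of all genes called). Hist2h2be then had an adjusted p of 0.116, Hist1h2ac of 0.138 and Hist1h4j of 0.139 by edgeR. In Vil1-CreER mice Hist2h2be kept its call with that block (adjusted p = 0.0166). Hist2h2be in villi was at 1.49 to 3.30 CPM in homozygous and 1.25 to 2.47 CPM in heterozygous Rosa26-CreER mice, and at 2.61 to 5.95 and 2.31 to 3.74 CPM in Vil1-CreER mice. The ratio per kb of Hist2h2be to Hist1h2bc was 0.0748 in homozygous and 0.173 in heterozygous Rosa26-CreER crypts, and 0.192 and 0.381 in Vil1-CreER crypts.

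In organoids with Eif4g2 deleted, most tested members had negative fold changes and fewer were called. Of the 18 tested members other than the 3 abundant ones, 4 were called lower in the first set, where 17.2% of all genes were. In the second set 8 were called lower against flox/+ and 3 against CreER-only organoids, where 24.3% and 23.5% of all genes were. In the first set, the sum of all members was 84.0, 101 and 106 CPM with 4-OHT and 108, 123 and 140 CPM with DMSO (ratio 0.785, no overlap), and the other 64 members gave 11.04 to 18.48 against 22.9 to 25.9 CPM (ratio 0.562, no overlap). Of 21 members 0 were higher and 4 lower, against 18.2% and 17.2% of all genes, and 20 of 21 had negative fold changes (median -0.89, against 0.03). Hist1h2bj, an H2B gene, had the call that every refit kept (-2.09 ± 0.42, edgeR adjusted p = 0.00853). Hist1h1e, the H1.4 gene, had 0.470, 0.623 and 0.796 CPM with 4-OHT and 1.16, 1.40 and 1.51 CPM with DMSO (-1.16 ± 0.28, adjusted p = 0.0167, lost in 3 of 6 refits). Hist1h4j (-1.64) and Hist1h2ao (-1.58) were lost in 5 and 4 of 6.

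The number of calls in this set of 3 against 3 depended on single libraries. Without 4-OHT library 3 it was 11 (all lower), and without DMSO library 1 or 4-OHT library 2 it was 2, and without 4-OHT library 1 or DMSO library 2 it was 1. With organoid line as a block 7 members were called. Hist1h1c had 29.7, 57.9 and 62.5 CPM with 4-OHT and 43.7, 66.3 and 74.7 CPM with DMSO, which overlapped, and was not called. S phase genes fell in 3 of 22 cases and replacement histones in 5 of 10.

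In the second set, all members summed to 96.8 to 109.6 CPM in flox/flox, 103.5 to 112.1 in flox/+ and 99.4 to 117.3 in CreER-only organoids, all overlapping. The other 64 members separated the genotypes, with 16.2 to 22.2 CPM in flox/flox, 29.5 to 39.3 in flox/+ and 25.9 to 31.0 in CreER-only organoids. The flox/flox libraries did not overlap with either reference (ratios 0.555 and 0.689). Against flox/+, 1 of 21 members was higher and 8 lower, where 22.6% and 24.3% of all genes were called, and 19 of 21 fold changes were negative (median -0.57, against -0.01). Both flox/flox comparisons share the same flox/flox libraries.

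The 8 lower members were mostly H4 and H3 genes. Hist1h4k (H4) had 0.178 to 0.473 CPM in flox/flox, 0.849 to 1.63 in flox/+ and 0.486 to 1.26 in CreER-only organoids, and its log2 fold change against flox/+ was -1.81. Hist1h4i (H4) had 2.08, 2.50, 3.18 and 3.38 CPM in flox/flox, 3.60, 4.62, 4.86 and 5.67 in flox/+ and 3.64, 3.75, 4.18 and 4.38 in CreER-only organoids, so flox/flox lay below both (-0.75 ± 0.20, edgeR adjusted p = 0.00586, against flox/+). Hist1h3c (H3) was at -1.26 ± 0.35 (adjusted p = 0.00852), with 0.535 to 1.15 CPM in flox/flox and 1.24 to 2.35 in flox/+. Hist1h4j (-1.72), Hist1h2bj (-1.71), Hist1h3h (-1.63), Hist1h1b (H1.5, -1.38) and Hist1h4d (-1.27) were the others. The last of these was lost in 5 of 8 refits and Hist1h1b in 1. Hist1h2bc was the 1 member called higher, at 17.6, 21.6, 22.6 and 28.5 CPM against 14.6, 17.0, 17.7 and 19.6, which overlapped (0.40 ± 0.14, adjusted p = 0.0348, lost in 5 of 8).

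Against CreER-only organoids 0 of 21 members were higher and 3 lower (Hist1h4j, Hist1h4d and Hist1h4i, the last at -0.53 with edgeR adjusted p = 0.0393), where 21.9% and 23.5% of all genes were called. Each was lost in 4 or 5 of 8 refits, and the count ran from 0 (without flox/flox library 3 or 4) through 1 (without CreER-only library 2) and 5 (without CreER-only library 1) to 7 (without flox/flox library 1). Between flox/+ and CreER-only organoids 0 members were called by edgeR in either direction, against 0.0492% and 0.0633% of all genes, and 0 members and 1481 genes had an unadjusted p below 0.05; DESeq2 called 0 members as well. S phase genes fell with the weaker members: 18 of 22 were lower in flox/flox than in flox/+ (median -0.43), as were H2afz (-0.30), H2afv (-1.04), Slbp (-0.24) and 9 of 16 chaperone genes. The part of this in the histone values was not tested.

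In fetal spheroids the abundant gene fell with 4-OHT in flox/flox cultures. Hist1h1c had 11.5, 15.9, 27.51, 30.03, 30.24 and 40.63 CPM with 4-OHT and 46.0 to 91.8 CPM with DMSO (n = 6 each), without overlap (-1.27 ± 0.30, edgeR adjusted p = 0.00476, kept in all 12 refits). In flox/+ spheroids it had 37.0 to 86.7 CPM with 4-OHT and 35.5 to 80.4 with DMSO. Among 4-OHT cultures, flox/flox against flox/+ gave -1.21 ± 0.31 (adjusted p = 0.014, kept in all 11 refits), with libraries that overlapped. The sum of all members was 33.9 to 80.4 CPM in flox/flox with 4-OHT and 83.4 to 134.6 with DMSO (ratio 0.525, no overlap), and in flox/+ the ratio was 0.991. For the other 64 members, flox/flox sums were 5.33 to 12.82 CPM with 4-OHT and 12.44 to 27.61 with DMSO, which overlapped (ratio 0.565).

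Of 14 members tested in flox/flox spheroids 0 were higher and 2 lower with 4-OHT, against 9.01% and 10% of all genes, and 0 of 14 had a positive fold change (median -1.01, against -0.02). The second call was Hist1h2be (H2B), with 0.285 to 0.733 CPM against 0.542 to 1.29 (-1.18, edgeR adjusted p = 0.042), lost in 8 of 12 refits and with line as a block (adjusted p = 0.0655). Leaving out DMSO library 1, 2, 3 or 4 or 4-OHT library 2, 5 or 6 left 1 called member. Hist1h2bc had 3.91 to 22.9 CPM with 4-OHT and 19.3 to 25.3 with DMSO and was not called. Among 4-OHT cultures 0 members were higher and 2 lower in flox/flox (4.36% and 6.13% of all genes), Hist1h1c and Hist1h2be (-1.39, adjusted p = 0.0334, lost in 8 of 11). The count was 1 without flox/flox library 2, 3, 5 or 6 or flox/+ library 1, 2, 3 or 4.

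With 4-OHT in flox/+ spheroids, 0 of 14 members were called by edgeR in either direction, as were 0% and 0% of all genes. There, 0 members and 15 genes had an unadjusted p below 0.05. This fit left out the line, although deviations of matched libraries correlated at 0.685 to 0.894. The lack of calls therefore does not show an absence of change. Between genotypes in DMSO the counts were likewise 0, with 0% and 0% of all genes, and 0 members and 1084 genes had an unadjusted p below 0.05. The interaction of 4-OHT and genotype called 0 of 14 members by edgeR (1.62% of all genes), with 2 members and 2096 genes at an unadjusted p below 0.05. In all 3 of these tests DESeq2 called 0 members too. Hist1h1c had an interaction of -1.23 ± 0.43 (unadjusted p = 0.00963, edgeR adjusted p = 0.167). With the line as a block, which pairs the DMSO and 4-OHT cultures and was added after seeing the data, it was called (-1.30 ± 0.25, edgeR adjusted p = 0.00327) and was the only member called, with 18.3% of all genes. The call on the Hist1h1c difference between genotypes therefore depended on the pairing. In the flox/flox spheroids 3 of 22 S phase genes fell and 0 rose, and 0 of 4 proliferation markers were called.

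Across all 17 comparisons, 31 of the 67 members had enough reads to be tested at least once, 8 were tested in every one, and 27 were called at least once. Over the same comparisons 84.6% of all genes tested were called at least once, so the members' share is close to the background. The remaining 36 did not pass the count filter in any of the 17 comparisons, so no fold change is given for them. Without that filter, some of these 36 were called in heterozygous Rosa26-CreER crypts against villi. Hist1h1c was called higher in 3 and lower in 6 comparisons, and Hist1h2bc higher in 4 and lower in 4.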

How the data were processed

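RNA was purified with poly-T beads and made into directional libraries, per the labels' protocols. The authors deposited 4 tables of raw counts per gene, whole numbers without normalization, with 1 column for each of the 92 libraries. Per the submitters' processing notes, HISAT2 2.0.5 and GRCm38 (mm10) were used, while the counting program, annotation and use of strand are not given in the sources used here, so counts of overlapping and near-identical genes are uncertain. All 92 libraries were used, and no pair within a group differed by less than sampling noise. Pairs across groups were not compared in this way.

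Each comparison was fitted across all genes in edgeR 4.0.16 (R 4.3.3, limma 3.58.1) using robust quasi-likelihood F-tests (two-sided) after filterByExpr and TMM, with Benjamini-Hochberg adjustment, and genes were called at an adjusted p under 0.05. The fit held 2 groups for tissue and for the first organoids, and all groups of the set elsewhere. CPM are counts scaled to a library total of 1e6. Replicates come from separate animals or culture lines only as far as the labels number them, and otherwise p-values measure the spread between these samples. Several spheroid lines have labels with the same number and different letters, within and across genotypes. Whether such lines share an origin was not tested. The code was tested on simulated data. Alternatives were DESeq2 1.42.0 and its size factors, no count filter, scaling without mitochondrial genes, a replicate block, a term for the Y-linked gene Ddx3y, and leaving out each library. A-485 organoid lines were also left out whole, an alternative chosen after seeing the data. For DMSO against 4-OHT or A-485, and for crypts against villi, libraries were matched by the line or animal the labels name, which pairs them, and deviations of matched libraries correlated at -0.0208 to 0.894. Genotype groups share only a number. Interactions were also fitted with the line or animal as a block, chosen after seeing the data.

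Members and lists were chosen with earlier results of these data known. Genes named were Eif4g2, the 10 members highest per kb, the highest of each class, up to 3 called members with the largest rise and fall in each comparison at a mean log2 CPM of at least 0, Slbp, H2afz, H3f3b, Mki67 and a few list genes. Others were named after their values were seen. Transcript models were taken from GENCODE vM21 (GRCm38), in which 67 of 67 members had the same start and end as in the deposited tables, and promoters from RefSeq (GRCm38.p6). Organoids grown in another medium that the series text mentions were not analysed here.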

Additional observations from a re-analysis of the deposited data

Results flagged for a closer look

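Among 72 tests of single libraries within groups of 4 to 10, 2 libraries stood outside their group, and chance alone would mark about 1 in 20 groups. Hist2h2be was at 1.39 CPM in A-485 3 µM line 4, with the other lines at 8.98 to 9.47 CPM. Hist1h2bc was at 106.7 CPM in A-485 5 µM line 4, with the others at 84.2 to 86.6 CPM. Both libraries came from line 4.

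The effect of homozygous Eif4g2 deletion differed between crypts and villi for 4 members in Rosa26-CreER mice (edgeR interaction test, log2 crypts minus villi): Hist1h2bc at 0.72 (adjusted p = 0.0387), Hist2h2be at -1.23 (adjusted p = 0.0349), Hist1h2ac at -2.04 (adjusted p = 0.0225) and Hist1h4j at -3.91 (adjusted p = 0.0248). In Vil1-CreER mice Hist2h2be differed at -1.38 (edgeR adjusted p = 0.00404). With the animal as a block, Hist1h2bc in Rosa26-CreER mice (adjusted p = 0.0278) and Hist2h2be in Vil1-CreER mice (adjusted p = 0.0166) kept their edgeR calls and the other 3 did not.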

How the results depend on the processing

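The cause of these changes was not tested. Without a count filter the number of called members became 1 in Rosa26-CreER crypts, 2 in Vil1-CreER villi, 36 and 8 in heterozygous crypts against villi (Rosa26-CreER, Vil1-CreER), 1 in flox/flox against CreER-only organoids and 1 in flox/flox spheroids. With a replicate block it was 1 and 2 for the numbers of Rosa26-CreER and Vil1-CreER crypts and 1 for spheroids with 4-OHT, where samples share only a number, and 7 for the first organoids and 1 for flox/flox spheroids, where lines pair the samples. In the interactions, added after seeing the data, the block by animal gave 1 for Rosa26-CreER and 1 for Vil1-CreER mice, and that by line 1 for spheroids. The line or animal block changed no other count by over 1.5 times. The Ddx3y term left 1 in Rosa26-CreER villi, and DESeq2 gave 2 for the Vil1-CreER interaction. For the log2 ratio of summed members, leaving out Hist1h1c gave -0.29 in Rosa26-CreER villi, 0.36 in Rosa26-CreER crypts against villi (reversed), -0.50 in the Vil1-CreER pair, 0.68, 1.67 and 2.52 at rising A-485 doses, and -0.29, -0.13 and 0.16 in the second organoid set. TMM gave -1.33 and -1.66 for crypts against villi (Rosa26-CreER, Vil1-CreER) and 3.16 at 10 µM, and totals without mitochondrial counts gave -0.0881 in Rosa26-CreER crypts.

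Leaving out 1 library at a time, called members numbered 2 to 5 (Rosa26-CreER crypts), 1 to 3 (villi), 2 to 5 and 0 to 2 (Vil1-CreER crypts, villi), 17 to 22 and 5 to 6 (crypts against villi), 1 to 11 (first organoid set), 3 to 4, 6 to 9 and 12 to 15 (A-485), 7 to 12, 0 to 7 and 0 to 0 (second organoid set), and 1 to 2, 0 to 0, 1 to 2 and 0 to 0 (spheroids). Leaving out an A-485 line at all doses, chosen after seeing the data, gave 3 to 4, 6 to 10 and 10 to 17. No called single gene reversed direction. Of 67 members, 36 did not pass the count filter in any of the 17 comparisons.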
